A study of Mus musculus with 2 samples.

Results

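The FOXO factors Foxo1 and Foxo3 and 8 genes known as FOXO targets or as parts of the same growth factor circuit were followed in imatinib-treated Ba/F3 cells. The 10 genes were chosen by name, with earlier results of these data known. Each was read from the probe set that the platform annotation assigns to that gene alone, and a gene with several such probe sets was represented by the one of highest mean value over the arrays. All 10 were measured, among 19935 genes in all, and each of the 10 had 1 probe set. Ba/F3 is an established mouse pro-B-like cell line whose growth requires interleukin-3 (IL-3). BCR-ABL, the oncogenic tyrosine kinase of chronic myeloid leukaemia, can replace that requirement and is blocked by imatinib. Both groups were live cells of this line that constitutively expressed BCR-ABL, were grown with 10% serum and received imatinib at 5 µM (the label's unit was read as micromolar) for 6 h. One group was grown with IL-3, a condition the submitters call resistant, and the other without it, a condition they call sensitive, with 1 array each.

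FOXO proteins are forkhead transcription factors that growth factor signalling holds in check. PI3-kinase activates AKT, which phosphorylates FOXO, and phosphorylated FOXO is bound by 14-3-3 proteins and kept out of the nucleus. When the signal stops, FOXO can enter the nucleus and switch on genes for cell cycle arrest, death and metabolic sparing, and in BCR-ABL cells and IL-3-dependent cells FOXO3 is known for driving arrest and the death gene Bcl2l11. This control acts mainly on the protein, so mRNA levels of Foxo1 and Foxo3 do not report FOXO activity.

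The member promoters are shown first, because FOXO factors bind known short sequences. The RefSeq promoter table (GRCm38.p6) held 12 promoters for the 10 genes, each running from 250 bases before to 50 bases after a transcription start. They were searched on both strands for the forkhead motifs GTAAACA and ATAAACA and for the insulin response motif CAAAACAA. No one of these motifs contains another. GTAAACA stood in 1 of the 12 promoters, ATAAACA in 0 and CAAAACAA in 2, against 3.65%, 4.60% and 2.51% of all 32851 promoters. Below, the motif is in capitals and every sequence reads 5′ to 3′ along the gene's strand. Sesn1 is shown as 30 bases around the match, which lies after 1 of its 2 starts (chr10:41810585-41810614, plus strand). Ccng2 (chr5:93267323-93267572, plus strand) and Irs2 (chr8:11008930-11009179, minus strand) are shown as the 250 bases before the start, with the match beginning 16 and 38 bases before it. Pik3ip1 (chr11:3330481-3330730, plus strand), the member with the largest difference between the arrays, is shown for contrast and has no capitals because none of the motifs was in its window.
Sesn1: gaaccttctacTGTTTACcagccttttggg
Ccng2: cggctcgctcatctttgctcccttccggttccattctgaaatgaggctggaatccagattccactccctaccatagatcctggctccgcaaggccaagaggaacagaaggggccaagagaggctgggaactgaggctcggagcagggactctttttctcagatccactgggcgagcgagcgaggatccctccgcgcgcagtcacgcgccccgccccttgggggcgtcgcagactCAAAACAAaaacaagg
Irs2: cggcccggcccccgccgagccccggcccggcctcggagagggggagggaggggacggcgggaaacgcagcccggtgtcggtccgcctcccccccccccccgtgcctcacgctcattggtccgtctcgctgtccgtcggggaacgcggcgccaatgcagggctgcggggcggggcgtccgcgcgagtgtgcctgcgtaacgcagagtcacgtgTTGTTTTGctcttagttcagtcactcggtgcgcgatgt
Pik3ip1: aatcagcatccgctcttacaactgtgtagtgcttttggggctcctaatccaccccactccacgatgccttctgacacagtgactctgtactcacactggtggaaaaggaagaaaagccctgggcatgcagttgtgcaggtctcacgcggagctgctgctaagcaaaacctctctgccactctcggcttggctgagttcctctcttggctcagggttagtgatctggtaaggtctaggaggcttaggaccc
A match is a description of the letters and not a binding site, and a missing match says only that these letters were not in this window.

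The values are log values, taken as log2, relative to a baseline that the authors subtracted per probe set. A value below 0 is therefore below that baseline and not a low level, no level of one gene can be set against another's, and detection could not be judged. Each difference is the value with IL-3 minus the value without it, which cancels the baseline. The direction follows the sample titles. The description of the array titled with IL-3 says that its cells were grown without IL-3, against the title and source name. If that description were right, both arrays would be without IL-3 and the contrast would not hold, and if the labels of the arrays were exchanged, every sign below would turn. A single array stands for each group, so no replicate error and no test could be had. The only yardstick at hand is the spread between probe sets of the same gene, a pooled SD of 0.14 over 998 other genes. It holds no variation between replicates, and it is not an error of the members, which have 1 probe set each. Near some members the scatter of all differences was smaller than it and near others larger, as given below. The error between replicates may be larger and is not known. Across all genes the median difference was 0.04. At least 2-fold was reached by 0.441% of genes on the side higher with IL-3 and 0.657% on the lower side, and at least 1.5-fold by 3.52% and 2.71%. That balance depended on the scaling. Of the genes past 1.5-fold, 56.5% were higher as deposited, 53.1% after median centring, 42.7% after quantile normalization and 32.6% after a loess trend was subtracted. Of those past 2-fold, the shares were 40.2%, 37.9%, 27.8% and 12.4%.

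Of the 10 members, 0 differed by 2-fold and 1, Pik3ip1, differed by 1.5-fold, on the lower side. The share of members past 1.5-fold in either direction is thus 1 of 10 against 6.23% of all genes. The median difference of the members was 0.06, beside 0.04 for all genes, and their median size regardless of sign was 0.11, beside 0.12. The difference was above 0 in 6 members and below 0 in 4 (5 and 5 after quantile normalization or with the loess trend subtracted), and it was above 0 in 59.8% of all genes. Only 4 members (Pik3ip1, Sesn1, Ddit4 and Ccng2) differed by more than the probe set SD. The members thus did not share a direction, and as a list they lay close to the background.

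**Figure D1:**
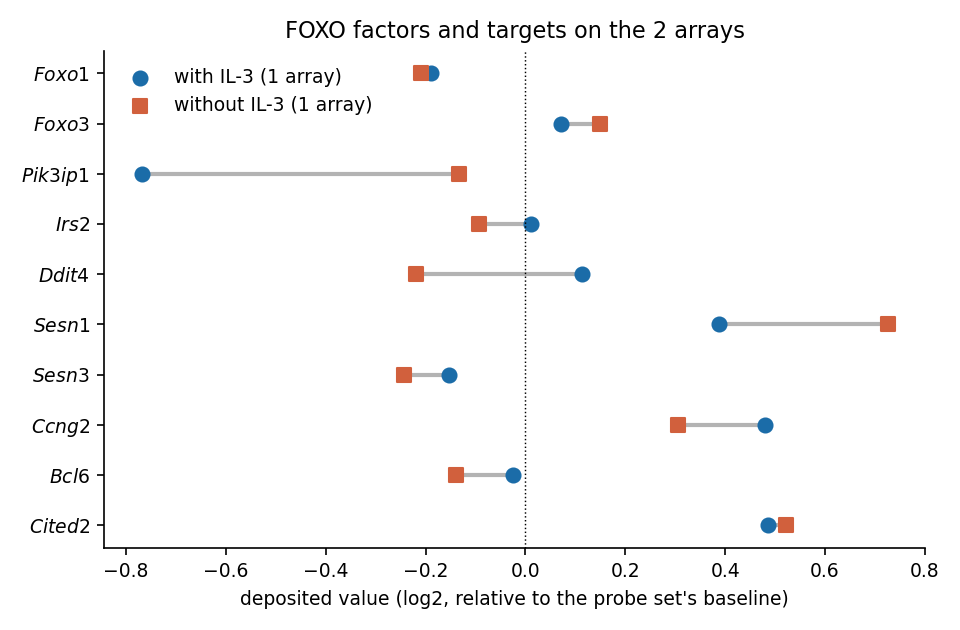
Deposited values of the 10 members on each array (log2, relative to the baseline of the probe set), with a circle for the array with IL-3, a square for the array without it and a grey line joining them. Pik3ip1 has the longest line (-0.77 with IL-3, -0.13 without), and the points of Foxo1 and of Cited2 nearly touch.

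The FOXO factors themselves differed little. Foxo1 had a value of -0.19 with IL-3 and -0.21 without, a difference of 0.02. Its sign depended on the scaling, since the difference was -0.01 after quantile normalization and -0.02 after the loess trend was subtracted. Foxo3, the FOXO factor most often studied in BCR-ABL cells, had a value of 0.07 with IL-3 and 0.15 without, a difference of -0.08 that stayed below 0 under the scalings tried (-0.09 to -0.07). Both differences were smaller than the probe set SD. Of the other FOXO genes, Foxo4 was at 0.22 with IL-3 and 0.51 without, a difference of -0.29 that was the lowest of the 8 other FOXO factors and close relatives examined, and Foxo6 differed by -0.02.

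Of the targets that feed back on PI3-kinase and insulin signalling, Pik3ip1 passed 1.5-fold and Irs2 lay within the probe set SD. Pik3ip1 encodes a membrane protein that binds and inhibits the catalytic subunit of PI3-kinase. Its value was -0.77 with IL-3 and -0.13 without, which is 1.55-fold lower with IL-3 (difference -0.64, or -0.65 to -0.59 under the scalings tried). Of all genes, 2.28% had a difference further below. The threshold of 1.5-fold is 0.58 on the log2 scale, so Pik3ip1 lay just inside it, and the next member, Sesn1, at -0.34, lay well outside it. Irs2 encodes an adaptor that carries insulin receptor and cytokine receptor signals to PI3-kinase. Irs2 was at 0.01 with IL-3 and -0.09 without, a difference of 0.11. Its relative Irs1 differed by 0.11 in 1 of its 2 probe sets, the one of higher mean.

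The members that restrain mTORC1, the growth-promoting kinase complex downstream of AKT, were on both sides of 0. Ddit4 encodes REDD1, which stress induces and which restrains mTORC1 through the TSC complex. Its value was 0.11 with IL-3 and -0.22 without, 1.26-fold higher with IL-3 and the highest difference among the members (0.33, or 0.31 to 0.33 under the scalings tried). Sestrins restrain mTORC1 by way of the amino acid-sensing GATOR complexes, and Sesn1 is a target of p53 as well as of FOXO. Sesn1 was at 0.39 with IL-3 and 0.73 without, 1.26-fold lower with IL-3 (difference -0.34, or -0.45 to -0.34 under the scalings tried). Sesn3, the sestrin most closely tied to FOXO, was at -0.15 with IL-3 and -0.24 without, a difference of 0.09 within the probe set SD. Sesn2, a sestrin known as a stress and ATF4 target that is not among the members, was at 0.38 with IL-3 and 0.03 without, a difference of 0.34. The 3 sestrin genes thus had no common direction.

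The cell cycle and transcription genes differed by little more than the probe set SD or less. Ccng2 encodes cyclin G2, an unusual cyclin linked to cell cycle arrest. It was at 0.48 with IL-3 and 0.31 without, a difference of 0.17 that put it on the side higher with IL-3, and its relative Ccng1 differed by -0.06. Bcl6, a transcriptional repressor that FOXO factors induce and that STAT5 represses, was at -0.03 with IL-3 and -0.14 without, a difference of 0.11. Cited2 encodes a cofactor that competes for the coactivators CBP and p300. It was at 0.49 with IL-3 and 0.52 without, a difference of -0.03, and -0.13 with the loess trend subtracted.

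The scatter of differences was not the same at all deposited values, so each member was also set beside the 1000 genes of nearest mean value. This mean is relative to the baseline of each probe set, so a low mean is not low expression. The near genes are thus not matched in expression level. Pik3ip1 lay among genes of low mean value (only 1.75% of genes had a lower one), whose differences had a robust SD (scaled median absolute deviation) of 0.17 around a median of 0.03. Of these, 2.70% differed by at least as much in either direction. Ddit4 lay among genes with a robust SD of 0.09 and a median of 0.03, and 5.20% of those differed by at least as much. Sesn1 lay among genes with a robust SD of 0.40, and 43.1% of those differed by at least as much, although its difference was about as large as that of Ddit4. For the other 7 members this share was between 31.4% (Irs2) and 94.5% (Cited2). For Ccng2, which was past the probe set SD, it was 60.7%, among genes with a robust SD of 0.34. These shares describe 2 arrays and are not p-values.

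**Figure D2:**
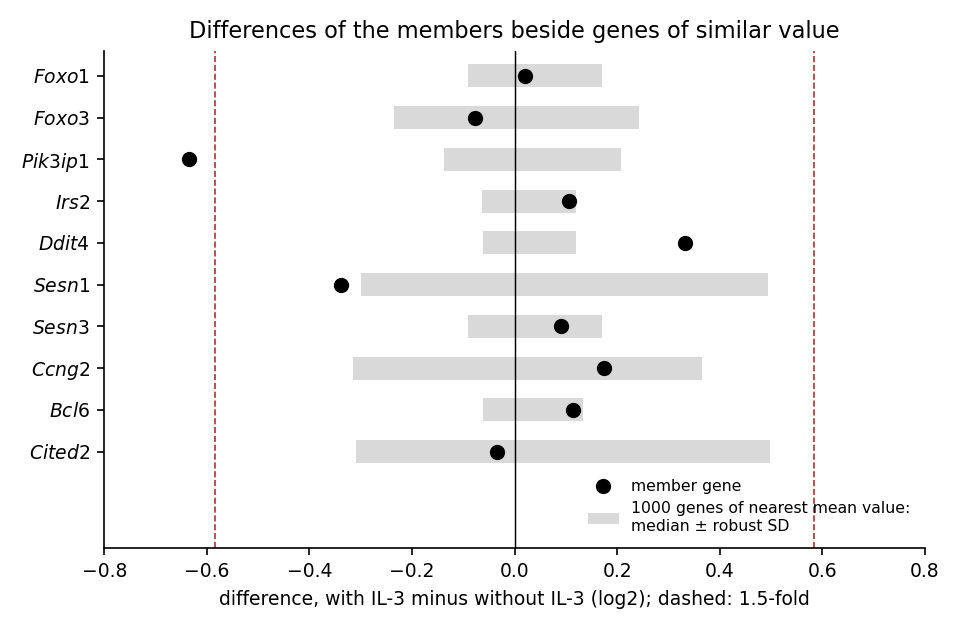
Difference of each member between the arrays (black points, log2, with IL-3 minus without IL-3) over grey bars that give the median ± robust SD of the 1000 genes nearest in mean value. Pik3ip1 at -0.64 and Ddit4 at 0.33 lie clear of their bars, Sesn1 lies just past the end of a wide bar, and the other 7 points lie on theirs.

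Changing the scaling between the arrays moved no member across the 1.5-fold lines. Foxo1 was the only member whose sign differed between the 4 scalings. Cited2 and Sesn1, which have high mean values relative to the baseline, moved furthest when the loess trend was subtracted.

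**Figure D3:**
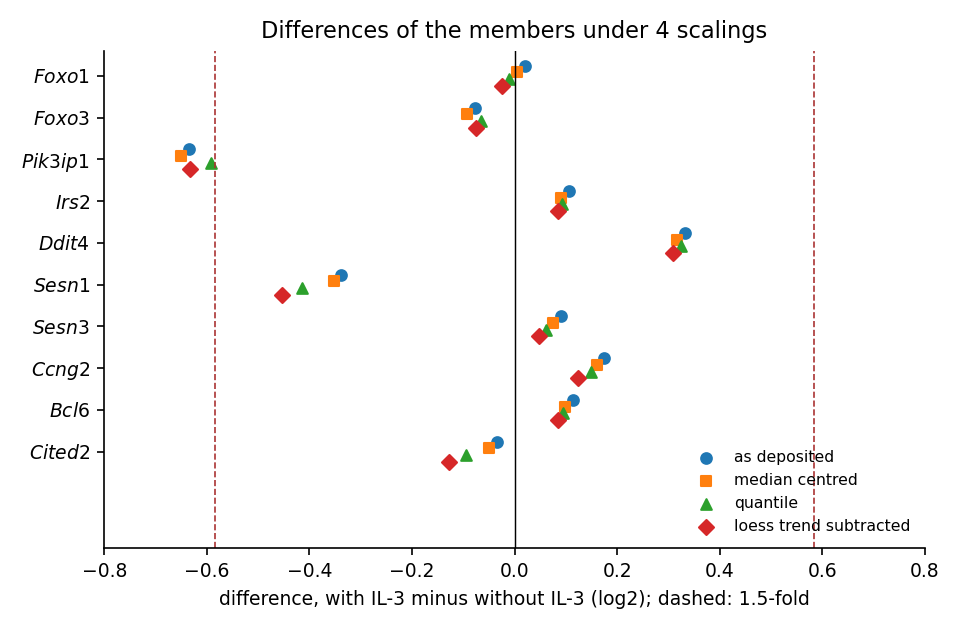
Difference of each member (log2, with IL-3 minus without IL-3) as deposited, after median centring, after quantile normalization and after subtraction of a loess trend. Pik3ip1 stays left of the dashed 1.5-fold line under all 4, and the points of Foxo1 lie on both sides of 0.

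The wider pathway was read from 8 lists of genes ordered by role, which were chosen with earlier results of these data known. Of their 116 genes, 110 had a probe set assigned to them alone. Of the 110, 7 passed 1.5-fold on the side higher with IL-3 and 8 on the lower side, beside 3.52% and 2.71% of all genes. With the loess trend subtracted the counts were 4 and 12, beside 357 and 738 of all 19935 genes. As deposited the median difference was -0.01. Upstream of FOXO, the list of PI3-kinase, AKT and phosphatase genes had 15 of 22 measured members below 0, beside 7995 of all 19935 genes. Its median was -0.09, beside 0.04 for all genes. As deposited, 2 genes of this list passed 1.5-fold on the lower side and 0 on the higher side, beside 2.71% and 3.52% of all genes. After quantile normalization 3 were lower and 0 higher, beside 645 and 480 of all 19935 genes. With the loess trend subtracted 4 were lower and 0 higher, beside 738 and 357 of all genes. Pik3r1, which encodes the main regulatory subunit of PI3-kinase, was at 0.37 with IL-3 and 0.98 without, 1.52-fold lower with IL-3. Inpp4b, a phosphatase gene that opposes the PI3-kinase signal, was at -0.41 with IL-3 and 0.24 without, 1.57-fold lower. Phlpp2, a phosphatase gene that acts on AKT, had the highest difference of this list, 0.28.

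Among FOXO partners and modifiers, 14 of 21 genes (66.7%) were above 0 as deposited, beside 59.8% of all genes, and 11 were with the loess trend subtracted. The median was 0.14, beside 0.04 for all genes. As deposited, 4 genes passed 1.5-fold on the higher side and 0 on the lower side, beside 3.52% and 2.71% of all genes. Under each other scaling 3 passed it on the higher side and 0 on the lower side. The higher count of all genes, 701 as deposited, also fell, to 639 after median centring, 480 after quantile normalization and 357 with the loess trend subtracted. Skp2, a ubiquitin ligase subunit that targets p27 and FOXO1, was at 1.15 with IL-3 and 0.23 without, 1.89-fold higher with IL-3. Foxk2, a forkhead factor that can occupy FOXO sites, was 1.84-fold higher (0.97 against 0.08), and Prmt1, an arginine methyltransferase that modifies FOXO1, was 1.56-fold higher (0.69 against 0.05). Xpo1, the nuclear exporter that carries FOXO out of the nucleus, just passed 1.5-fold (1.55 against 0.96, a difference of 0.59), but differed by 0.57 after median centring, 0.46 after quantile normalization and 0.13 with the loess trend subtracted. Sirt2, a deacetylase gene, had the lowest difference of this list, -0.42. In the mTORC1 branch, 0 of 19 measured genes passed 1.5-fold as deposited, beside 6.23% of all genes in either direction. Differences in this branch ran from -0.43 for Rragc, a RAG GTPase gene (-0.60 and past 1.5-fold with the loess trend subtracted), to 0.32 for Mtor, the kinase itself. Their median was 0.13, beside 0.04 for all genes, and 13 of 19 were above 0 as deposited, beside 59.8% of all genes.

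Of the FOXO targets outside the members, whose lists were likewise chosen with earlier results of these data known, 40 were measured. Of these, 6 passed 1.5-fold on the lower side and 3 on the higher side, beside 2.71% and 3.52% of all genes. Past 2-fold there were 3 and 1, beside 0.657% and 0.441%. With the loess trend subtracted 7 passed 1.5-fold on the lower side and 1 on the higher side, beside 738 and 357 of all 19935 genes. The median was -0.05. Among cell cycle and repair targets (10 measured, median -0.22), Btg1, an antiproliferative gene, was at 0.06 with IL-3 and 1.20 without, 2.21-fold lower with IL-3. Txnip, which restrains glucose uptake and thioredoxin, was 1.96-fold lower (-0.27 against 0.71). Cdkn1b, which encodes the cell cycle inhibitor p27, was 1.54-fold lower (0.38 against 1.00), but its other probe set differed by -0.23. Plk1, a mitotic kinase gene, was 1.76-fold higher (1.39 against 0.57), with a difference of 0.82 that was 0.50, below 1.5-fold, with the loess trend subtracted.

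Among death-related targets (8 measured, median 0.03, and just below 0 with the loess trend subtracted), the extremes were far apart. Trp53inp1, a p53-linked gene of death and autophagy, was at -0.47 with IL-3 and 1.10 without, 2.99-fold lower with IL-3. Bcl2l11, which encodes the death protein BIM, was 1.62-fold lower (-0.01 against 0.68). Bnip3, a mitochondrial death and mitophagy gene that hypoxia also induces, was 2.26-fold higher (1.65 against 0.48), with a difference of 1.17 that was 0.81, below 2-fold, with the loess trend subtracted. Its other probe set differed by 0.44. In the oxidative stress, metabolism and atrophy list (15 measured, median -0.04), Prdx3, a mitochondrial peroxidase gene, was 1.59-fold higher (difference 0.66, but 0.30 with the loess trend subtracted). Atg12 had the lowest difference of that list, -0.51, and was past 1.5-fold with quantile normalization (-0.60) and with the loess trend subtracted (-0.62). Among the lymphoid targets (7 measured, median -0.05), Cxcr4, a chemokine receptor gene, was 2.37-fold lower (-0.27 against 0.98), and S1pr1, a receptor that guides lymphocyte exit from tissues, had the highest difference, 0.27.

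**Figure D4:**
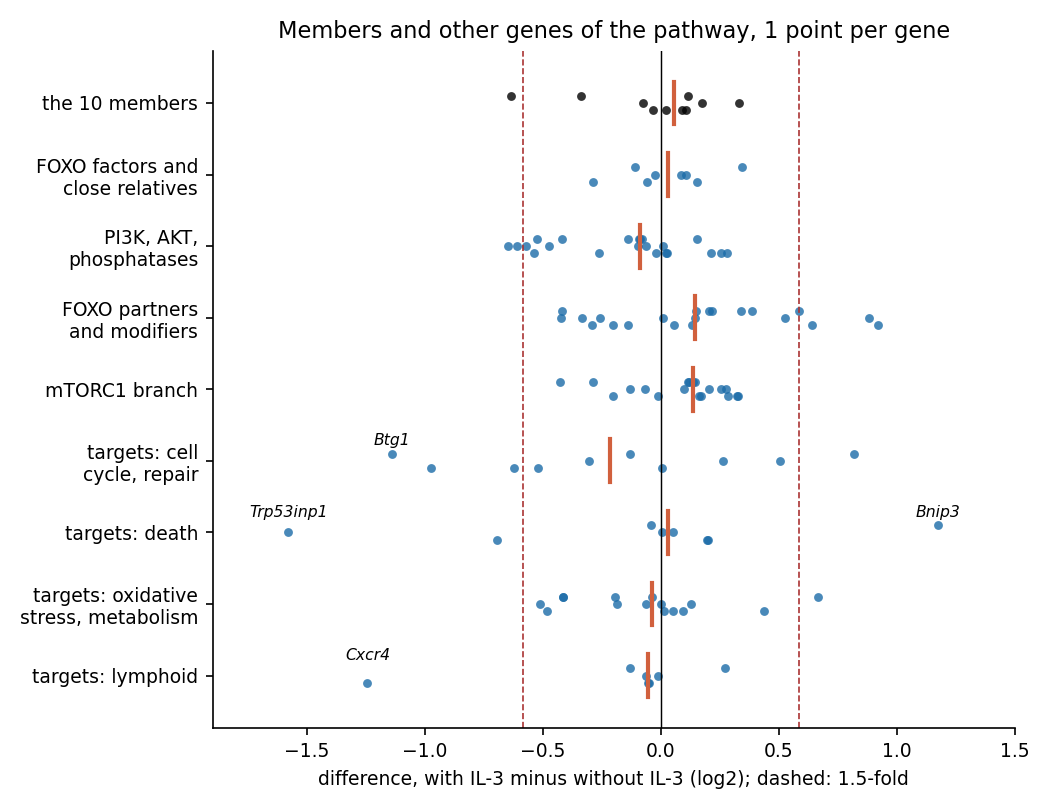
Difference of each measured gene (1 point each, log2, with IL-3 minus without IL-3) for the 10 members and the 8 lists of other pathway genes, with an orange line at each median and the 4 genes past 2-fold named. The members span -0.64 to 0.33 and the death-related targets -1.58 to 1.17, with Bnip3 at 0.81 when the loess trend is subtracted.

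The labelled cell type was checked against B-lineage markers only as differences, because baseline-relative values carry no level and summed marker levels could not be formed. Of 10 B-lineage markers 9 were measured, with 7 above 0, 0 past 1.5-fold and differences from -0.35 (Cd79a) to 0.23 (Vpreb2). Of 10 mast cell and basophil markers all were measured, of which 4 passed 1.5-fold on the lower side and 0 on the higher side. In that list 3 were above 0 and 7 below (median -0.37), from -2.46 for Fcer1a to 0.18 for Kit. Of 9 granulocyte markers 4 passed 1.5-fold on the lower side and 0 on the higher side. Here 3 were above 0 and 6 below (median -0.10), from -2.87 for Ngp to 0.38 for S100a9, so neither list moved as a whole. Of all genes, 2.71% passed 1.5-fold on the lower side and 3.52% on the higher side, and 59.8% were above 0. The markers past 1.5-fold were thus on the same side as Pik3ip1, and their part in its difference was not tested. In such bulk samples, fewer cells of a type and less RNA per cell cannot be told apart.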

How the data were processed

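RNA of 2 samples was labelled with biotin and hybridised to 1-colour mouse Gene 1.0 ST arrays, per the labels' protocols. The values are the authors' processed log values, deposited as 1 number for each of 28815 probe sets and array and taken here as log2. The sources used here do not give the log base, background correction, normalization or the arrays behind the baseline. Medians of -0.03 and -0.05 and 1760 probe sets (6.11%) with equal and opposite values, within 1e-05, show a per-probe-set baseline. Higher values were taken to mean more RNA, which no source states. Of the probe sets, 21780 had 1 gene symbol in the platform annotation, 1605 several and 5430 none, and only the first kind was used.

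No filter was applied. Differences were computed with pandas 2.3.3 in Python 3.11.15. Alternatives were median centring, quantile normalization, a loess trend (statsmodels 0.14.6, span 0.3) subtracted, other probe set rules, natural logs, and a filter on each array's median. The gene-level calculation was tested on simulated data. The members and lists were chosen with earlier results of these data known. The genes named are all members and, from each list, those past 1.5-fold and the highest and lowest; values of Foxo6, Irs1, Ccng1, the cell type markers and most genes of the closing observations were named outside this rule.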

Additional observations from a re-analysis of the deposited data

How the results depend on the processing

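Each result was recomputed with median centring, quantile normalization, a subtracted loess trend, natural logs, other probe set rules and a filter that required both arrays to reach their median. No member changed with the probe set rule, since each had 1 probe set. The count of members past 2-fold was 0 under every alternative. Pik3ip1 stayed the 1 member past 1.5-fold except under the filter, which kept 4 members (Foxo3, Sesn1, Ccng2 and Cited2) and left 0 past it. If the values are natural logs, the differences would be -0.92 for Pik3ip1, 0.48 for Ddit4 and -0.49 for Sesn1. Over all genes, 88 were at least 2-fold higher and 131 lower as deposited, against 29 and 205 with the loess trend subtracted and 419 and 375 with natural logs, and the filter gave 48 lower. At 1.5-fold, 701 were higher and 540 lower, against 357 higher with the loess trend subtracted, 1475 and 1080 with natural logs, and 279 lower under the filter. Of the other pathway genes, 7 were higher and 8 lower, against 4 higher with the loess trend subtracted, 21 lower with natural logs and 4 lower under the filter. The causes of these shifts were not tested, beyond the fewer genes that the filter keeps (8376) and the larger fold that natural logs imply. Of 210 recomputed values of single pathway genes and list medians, 34 moved by at least the probe set SD, 19 of them with natural logs, and 0 reversed a difference past 1.5-fold. Many of these values could not reverse. No list median was past 1.5-fold, and natural logs cannot turn a sign. The filter leaves the value of a single gene unchanged, as do the probe set rules for a gene with 1 probe set. No paired analysis was possible because each group has 1 array, so no replicate could be left out either. The lack of replicates, and of signal and background values, limits every difference here.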

Other observations

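Some patterns were seen only after the values were at hand and are given as values. Of the autophagy-related genes in the FOXO target lists, Atg12 was at -0.51, Map1lc3b at -0.48, Gabarapl1 at -0.42 and Ulk1 at -0.42, whereas Trp53inp1 was at -1.58, Bnip3l at 0.20 and Bnip3 at 1.17. Map1lc3b, Bnip3l and Bnip3 have 2 probe sets each, and the value is from the one of higher mean. The 6 Ywha genes of the 14-3-3 family, whose proteins hold phosphorylated FOXO in the cytoplasm, were all above 0 as deposited (0.05 to 0.52, median 0.18). Of all genes, 59.8% were above 0 as deposited. Only 4 of the 6 Ywha genes were above 0 after quantile normalization or with the loess trend subtracted. As deposited, upstream receptor genes lay just short of 1.5-fold on the lower side, with Igf1r at -0.57 and Insr at -0.54 (1 of its 2 probe sets). So did Inpp5d, which encodes the phosphatase SHIP1, at -0.52. Their list had 2 genes past 1.5-fold on that side as deposited, 3 after quantile normalization and 4 with the loess trend subtracted. Of the arrest and repair genes Gadd45a and Gadd45b, the first differed by -0.52 and the second by -0.31.

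The promoters of all 10 members were richer in G and C than the median promoter (52.7%), from 54.7% for Pik3ip1 to 75.0% for Foxo3 (Sesn1 and Bcl6 with 2 promoters each, pooled). The mTOR gene was 1 of the 1760 probe sets (6.11%) with equal and opposite values, 0.16 with IL-3 and -0.16 without. Other genes of the lists had them too, among them Irs1 (0.05 and -0.05), Pik3r2 (0.08 and -0.08) and Kat2b (0.17 and -0.17). None of the members was among these probe sets.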
